A study of Mus musculus with 92 samples.

Results

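Intestinal crypts were compared between mice with both copies of Eif4g2 floxed and mice with 1 copy floxed, 3 months after Cre was induced. The members were chosen by their labelled genotype, tissue and time, and make up 7 of the 92 libraries of the study: 3 homozygous crypt libraries, Eif4g2(flox/flox),Vil1(CreER), and 4 heterozygous ones, Eif4g2(flox/+),Vil1(CreER). All 7 animals carried CreER, a Cre recombinase that works only in the presence of tamoxifen, under Vil1, whose promoter is active in the intestinal epithelium and not in blood or connective tissue. All received tamoxifen at 100 mg/kg on 4 consecutive days, so the heterozygous controls share the Cre, the drug and a floxed copy, and these libraries include no animal without Cre. The labels do not give the animals' age or sex, the segment of intestine or the floxed exons. Villi were taken from the same animals and from other homozygous animals. Crypts of Rosa26(CreER) mice, in which a broadly active promoter drives CreER, were taken on day 9. The study also holds organoids and fetal spheroids. No label says more of how the animals relate, so p-values measure the spread between these libraries.

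Eif4g2, also called DAP5, encodes a translation initiation factor. It resembles the scaffold eIF4G1 but lacks the part that binds the cap-binding protein eIF4E, and it supports the translation of a subset of mRNAs. In the crypt, stem cells at the base are kept by Wnt, Notch and EGF signals, and lie between Paneth cells, which secrete lysozyme and defensins. Their daughters divide, then become absorptive enterocytes or the secretory goblet, enteroendocrine and tuft cells on the way to the villus. After injury the epithelium is known to express genes of the fetal intestine for a time.

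Values are CPM, the reads of a gene per 1000000 counted reads, after TMM scaling of the 7 libraries, given in the order heterozygous 1 to 4 and homozygous 1 to 3. Fold changes are log2, homozygous minus heterozygous, ± the standard error, with the adjusted p of edgeR's quasi-likelihood test over all genes tested. A gene is said to rise or fall when that adjusted p is under 0.05. Eif4g2 itself (ENSMUSG00000005610, chromosome 7, 111067750 to 111083030, minus strand, GRCm38) was at 579, 599.6, 603 and 539 CPM in the heterozygous libraries and at 296, 296 and 285 in the homozygous ones. The groups did not overlap and the homozygous libraries held about the same level as each other (log2 fold change -0.99 ± 0.08, edgeR adjusted p 0.000127). The counts cover the whole gene, so reads of a transcript without the floxed exons are counted too.

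The libraries held between 23957033 and 36745714 counted reads, and the 10 genes with the most reads took 19.2% to 40.2% of them. Transcripts of the mitochondrial genome took 17.5% to 30.8% of the reads in heterozygous crypts (23.3% ± 6.07, SD, n = 4) and 30.4% to 40.3% in homozygous crypts (35.7% ± 4.98, SD, n = 3); an exact two-sided permutation test of the means gave p = 0.0857, where 0.0286 is the smallest the design allows. Markers of the ileum, the last segment of the small intestine, divided the heterozygous libraries. Fabp6, an ileal bile acid binding protein, was at 22.4, 288, 0.345 and 0.49 CPM of all reads in heterozygous crypts and at 22.7, 90.1 and 88.7 in homozygous crypts. Slc10a2, the ileal bile acid transporter, was at 4.13, 19.7, 0.138 and 0.327 and at 5.93, 13.1 and 35.7. Heterozygous libraries 3 and 4 therefore stood apart, and the villi of the same 2 animals had Fabp6 at 0. The counts of the gene lists in crypts are also given without those 2 libraries, an alternative chosen after the data were seen; beyond that, the part of the segment in the results was not tested. Summed over 30 immune cell genes, CPM were 823, 1896, 1147 and 342 in heterozygous crypts and 2003, 1893 and 1625 in homozygous crypts, so the groups overlapped.

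Of 16954 genes tested, 4960 (29.3%) passed: 1964 (11.6%) were higher and 2996 (17.7%) lower in homozygous crypts. Scaling by library totals alone, which moves the median of all genes from 0.01 to -0.13, gave 841 higher and 3318 lower, so the share of rises among calls went from 39.6% to 20.2%. Without heterozygous 3 and 4, 3614 of 17303 passed, 1529 higher and 2085 lower. These shares, 11.6% higher and 17.7% lower, are the background against which the counts of each gene list can be read. The groups did not overlap in CPM for 6711 genes (39.6%), the share beside which statements of no overlap below can be read.

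The 12 largest rises and the 12 largest falls were taken from well expressed genes whose groups did not overlap in CPM. The rises were led by the tumour suppressor locus Cdkn2a (9.63), Atg9b, a lipid scramblase of autophagy (7.94), and Phlda3, a p53-induced inhibitor of AKT (6.70). They went on with the calcium-binding protein S100a6 (5.99) and the interleukin-1 receptor antagonist Il1rn (5.33). Atg9b was at 0.585, 0.14, 0.338 and 0.173 CPM in heterozygous crypts and 140.2, 39.3 and 46.8 in homozygous crypts, and homozygous 1 was the highest. The remaining rises were Eda2r, Mboat1, Serpinb5, Anxa3, Etv4, S100a14 and Wwc2, between 3.23 and 4.33. Among them Etv4, an ETS transcription factor downstream of ERK signalling, was 2.25, 2.84, 3.80 and 4.11 CPM in the 4 heterozygous libraries against 35.4, 31.5 and 30.9 in the 3 homozygous ones. The rise of Etv4 was 3.33 ± 0.21 (edgeR adjusted p 5.02e-05).

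The 12 largest falls included Esrrg, an orphan nuclear receptor (-7.26), Dpysl5, a cytoskeletal protein of the dihydropyrimidinase-like family (-6.35), Slc1a3, a glutamate transporter (-6.01), and Prlr, the prolactin receptor (-5.96). Esrrg was at 35.4, 31.3, 48.4 and 45.4 CPM in heterozygous crypts and 0.0474, 0.147 and 0.6 in homozygous crypts (edgeR adjusted p 0.000292). Slc1a3 was at 32.7, 26.2, 36.99 and 53.5 CPM in the heterozygous libraries and at 0.474, 0.707 and 0.514 in the homozygous ones. The other falls were Defa32, Mptx2, Ceacam10, Clic6, Ces1d, Pbld1, Pnliprp2 and Defa21, between -8.61 and -5.44. Defa32, Defa21, Mptx2, Ceacam10 and Ces1d have near-identical relatives, so their counts are uncertain. All 24 of these genes kept their call without heterozygous 3 and 4, while Defa32 and Defa21 lost it under several other settings.

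**Figure D1:**
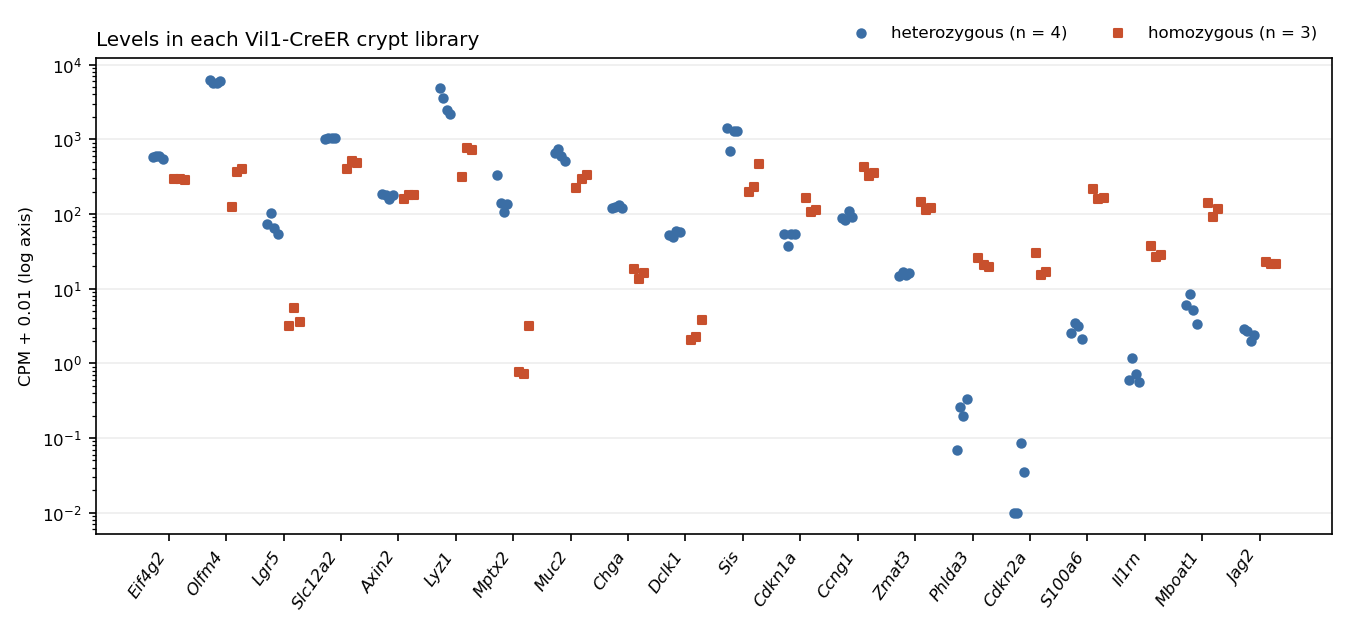
Level of 20 genes (vertical axis, CPM plus 0.01 on a log scale) in each of the 4 heterozygous and 3 homozygous crypt libraries, 1 point a library. For Cdkn2a, Phlda3 and S100a6 the homozygous points lie far above the heterozygous ones, for Lgr5, Olfm4 and Mptx2 far below, and for Axin2 they overlap.

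Genes that mark Wnt-dependent stem cells were lower. Of 19 listed, all were tested, 16 fell and none rose, with a median log2 fold change of -1.38 beside 0.01 over all genes. Lgr5, the R-spondin receptor that defines crypt base stem cells, was at 73.7, 103, 64.1 and 53.6 CPM in heterozygous crypts and 3.17, 5.54 and 3.599 in homozygous crypts. The 3 homozygous values lay close together, far below the lowest heterozygous one. The fold change was -4.15 ± 0.32 (edgeR adjusted p 0.000245). Olfm4, a glycoprotein secreted by these cells, was at 6281, 5650.4, 5628 and 6114 CPM in the heterozygous libraries and at 125, 368 and 396 in the homozygous ones, and the homozygous libraries differed among themselves more than the heterozygous ones did (log2 fold change -4.32 ± 0.43, edgeR adjusted p 0.000598). Tnfrsf19, a Wnt target receptor, fell by the most of the list (21.5, 18.6, 13.1 and 15.2 CPM (heterozygous) and 0.142, 1.119 and 0.943 CPM (homozygous)).

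Other stem cell genes fell less. Slc12a2, an ion cotransporter of crypt cells, was at 1009, 1037, 1049 and 1046 CPM in heterozygous crypts and 407, 507 and 478 in homozygous crypts (log2 fold change -1.16 ± 0.10, edgeR adjusted p 0.000169), so the homozygous crypts kept a level that the first group of markers did not. Sox9, a transcription factor of stem, progenitor and Paneth cells, was 102, 84.8, 84.8 and 92.2 CPM in the 4 heterozygous libraries against 51.8, 58.7 and 57.02 in the 3 homozygous ones (log2 fold change -0.71 ± 0.09). Smoc2, a matricellular protein, had a fold change of -1.38 ± 0.12, and the MYC target Cdca7 one of -0.77 ± 0.08. The 3 listed genes that did not pass were Axin2, a direct target of Wnt signalling (-0.03 ± 0.08, edgeR adjusted p 0.786), Ephb2 (-0.25 ± 0.08, 0.0549) and the stem cell transcription factor Ascl2 (-0.34 ± 0.17, 0.184). In a bulk sample, fewer cells of a type and less RNA per cell cannot be told apart, here and for every cell type below. With the villi in the fit (17 libraries), 10 of the 19 passed, and Slc12a2, Smoc2, Sox9 and Cdca7 did not. The counts with heterozygous 3 and 4 left out were 0 higher and 14 lower of 19.

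The Notch pathway keeps crypt stem cells undifferentiated, and its ligands are presented by Paneth and other secretory cells. Of 15 genes tested, 8 fell and 2 rose, beside 17.7% and 11.6% of all genes. Among ligands, Dll1 was at 56.6, 38.3, 47.3 and 49.6 CPM in heterozygous crypts and 16.1, 23.2 and 15.9 in homozygous crypts (-1.38 ± 0.18, edgeR adjusted p 0.00117). Dll4 was at 19.2, 13.2, 19.3 and 14.8 CPM in heterozygous crypts and 2.56, 4.80 and 4.41 in homozygous crypts (-2.07 ± 0.25, edgeR adjusted p 0.000835). Both delta-like ligands were lower in each homozygous library than in any heterozygous one. The jagged ligands were higher: Jag2 was at 2.84, 2.67, 1.99 and 2.35 CPM in the heterozygous libraries and at 22.6, 21.2 and 21.4 in the homozygous ones (log2 fold change 3.14 ± 0.15, edgeR adjusted p 1.8e-05), with little spread in either group. Jag1 had a fold change of 0.95 ± 0.16 (edgeR adjusted p 0.00389).

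The receptor Notch1 was at 50.3, 47.97, 49.9 and 43.9 CPM in heterozygous crypts and 19.3, 22.97 and 18.8 in homozygous crypts (-1.24 ± 0.10, edgeR adjusted p 0.00014). Notch2, another receptor, did not pass (0.33 ± 0.29, edgeR adjusted p 0.45). The pathway's target Hes1, a repressor that keeps progenitors from the secretory fate, was 62.1, 57.9, 60.3 and 62.6 CPM in the 4 heterozygous libraries against 34.6, 40.96 and 36.8 in the 3 homozygous ones, and its groups did not overlap (fold change -0.70 ± 0.08). Atoh1, the factor that commits cells to the secretory fate and that Hes1 represses, was also lower, 28.6, 29.2, 31.3 and 24.2 CPM in the 4 heterozygous libraries against 10.6, 16.3 and 14.2 in the 3 homozygous ones (-1.04 ± 0.16). So the ligands Jag1 and Jag2 moved one way and the receptor, the delta-like ligands, Hes1 and Atoh1 the other. The count of falls was 5 without homozygous 1, the count of rises was 5 without heterozygous 2, and without heterozygous 3 and 4 the counts were 2 higher and 6 lower of 17.

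Paneth cell genes other than defensins fell in 12 of 14 tested, with a median of -2.93. Lyz1, the lysozyme of Paneth cells, was at 4871, 3589, 2493 and 2203 CPM in the heterozygous libraries and at 312, 767 and 725 in the homozygous ones. Heterozygous 1 was the highest and heterozygous 4 the lowest of its group, and the highest homozygous library remained below the lowest heterozygous one (log2 fold change -2.45 ± 0.43, edgeR adjusted p 0.00606). Ang4, a bactericidal ribonuclease, was at 279, 189, 117 and 88.4 CPM in heterozygous crypts and 4.03, 8.10 and 7.97 in homozygous crypts (-4.64 ± 0.55). Itln1, a lectin that binds microbial sugars, was at 1387, 959, 875 and 530.5 CPM in heterozygous crypts and 59.7, 171 and 137 in homozygous crypts (-2.93 ± 0.49). Mptx2, a mucosal pentraxin, was 336, 140.3, 108 and 136 CPM in the 4 heterozygous libraries against 0.758, 0.707 and 3.17 in the 3 homozygous ones, and its heterozygous 1 stood far above the other 3. Mmp7, the protease that activates defensins, fell less (-1.58 ± 0.31, edgeR adjusted p 0.00973), and its call was lost with the villi in the fit.

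Wnt3, the Wnt ligand that Paneth cells supply to stem cells, was at 7.99, 8.88, 6.17 and 4.88 CPM in heterozygous crypts and 0.711, 2.27 and 2.40 in homozygous crypts (-1.95 ± 0.42, edgeR adjusted p 0.0101). The homozygous libraries differed more than 2-fold among themselves, with homozygous 1 the lowest. Nupr1, a stress-induced chromatin protein, fell with them (-2.69 ± 0.42). Pnliprp2, a lipase made by Paneth cells, was 85.6, 69.9, 37.2 and 37.9 CPM (heterozygous) and 0.0947, 1.24 and 1.88 CPM (homozygous) and had a fold change of -5.71 ± 0.77. Leaving out heterozygous 3 and 4 gave 0 higher and 12 lower of 14.

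Of 27 listed alpha-defensin genes, the pore-forming peptides of Paneth granules, 23 were tested, 19 fell and none rose (median -4.23). Defa24 was at 1631, 1138, 1016 and 846 CPM in heterozygous crypts and 23.4, 122 and 106 in homozygous crypts (-3.79 ± 0.64, edgeR adjusted p 0.00707). Homozygous 1 was well below the other 2. Summed over the list, defensin CPM ranged from 2000.4 to 4610.2 in heterozygous and from 41.8 to 249.9 in homozygous crypts. Defa21 ranged from 62.1 to 477 CPM in heterozygous crypts, with libraries 1 and 2 above libraries 3 and 4, so its heterozygous spread followed the ileal markers. These genes are near-identical copies that share reads, so the list is best read as a whole. The count of falls was 10 without homozygous 2, 11 when every gene with 1 read was tested, 11 without the heterozygous libraries of most and fewest immune reads, and 18 of 23 without heterozygous 3 and 4. Defa24 lost its call without the libraries of most and fewest immune reads and under a replicate block.

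Goblet cell genes fell in 14 of 19 tested and rose in none (median -1.14; without heterozygous 3 and 4, 0 higher and 13 lower of 19). Muc2, the gel-forming mucin, was at 660.05, 735, 601 and 507 CPM in heterozygous crypts and 220.4, 296 and 334 in homozygous crypts (-1.14 ± 0.17, edgeR adjusted p 0.00218). Tff3, the trefoil peptide packed with it, was 181, 209, 307 and 219 CPM in the 4 heterozygous libraries against 95.03, 136 and 114 in the 3 homozygous ones. Its heterozygous 3 was the highest, and the groups did not overlap (fold change -0.995 ± 0.20). Fcgbp, a large protein of mucus, had a fold change of -1.76 ± 0.25 and Agr2, the disulfide isomerase that folds Muc2, one of -1.35 ± 0.22. Klk1, a kallikrein, had the largest fall of the list (-2.81 ± 0.42), and Ern2, the IRE1 form of mucus-secreting cells, was at -1.51 ± 0.15. Not all goblet genes passed: Zg16 (-0.65 ± 0.28, edgeR adjusted p 0.134), Clca1 (-0.14 ± 0.20, 0.649) and Spdef, the transcription factor of goblet and Paneth maturation (-0.36 ± 0.17, 0.139), did not.

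Enteroendocrine cells secrete the hormones of the gut. Of 21 regulators and granins 20 fell (median -2.44), and of 12 hormone genes tested 9 fell (median -2.17). None of either list rose. Chga, the granin of most enteroendocrine cells, was at 119, 123.7, 132 and 121 CPM in heterozygous crypts and 18.3, 13.5 and 16.3 in homozygous crypts (-2.95 ± 0.12, edgeR adjusted p 1.17e-05). Both groups were tight. Chgb was at 446, 358, 482 and 386 CPM in heterozygous crypts and 126, 133 and 127 in homozygous crypts (-1.70 ± 0.12). Neurod1, a transcription factor of the lineage, was 8.16, 7.19, 7.44 and 5.55 CPM in the 4 heterozygous libraries against 0.853, 1.41 and 1.63 in the 3 homozygous ones (-2.44 ± 0.27). Neurog3, the factor that starts the lineage, was at -1.68, and lost its call without heterozygous 3 and 4 (edgeR adjusted p 0.0504) and with the villi in the fit.

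Hormones of different enteroendocrine subtypes fell together. Gcg, the precursor of glucagon-like peptides made by L cells, was at 61.8, 79.3, 43.6 and 58.3 CPM in heterozygous crypts and 3.27, 5.51 and 5.61 in homozygous crypts (-3.66 ± 0.28, edgeR adjusted p 0.000212). Sst, the somatostatin of D cells, was at 17.03, 29.1, 46.5 and 25.8 CPM in heterozygous crypts and 3.84, 3.86 and 4.24 in homozygous crypts (-2.89 ± 0.34). Gip, of K cells, was 103, 105, 235.2 and 147 CPM in the 4 heterozygous libraries against 27.5, 30.2 and 21.6 in the 3 homozygous ones (-2.48 ± 0.35). Cck, of I cells, was at -1.65 ± 0.24 (edgeR adjusted p 0.00169). In each of the 4 the highest homozygous library was below the lowest heterozygous one. With heterozygous 3 and 4 left out, the counts were 0 higher and 18 lower of 20 regulators and 0 higher and 8 lower of 12 hormones.

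Tuft cells, chemosensory cells of the epithelium, followed the same course: 13 of 17 fell and none rose (median -2.33). Dclk1, a kinase that marks them, was at 52.8, 49.7, 59.5 and 56.9 CPM in heterozygous crypts and 2.04, 2.24 and 3.86 in homozygous crypts (-4.34 ± 0.23, edgeR adjusted p 4.53e-05). Trpm5, their cation channel, was at 37.8, 38.9, 43.9 and 41.3 CPM in heterozygous crypts and 2.04, 2.00 and 2.96 in homozygous crypts (-4.12 ± 0.16, edgeR adjusted p 1.17e-05). Pou2f3, the transcription factor required for them, was 8.75, 10.6, 12.5 and 6.49 CPM in the 4 heterozygous libraries against 0.616, 1.83 and 1.16 in the 3 homozygous ones (-2.97 ± 0.39). Gnat3, the taste G protein, had 114 reads over the heterozygous and 2 over the homozygous libraries, a ratio of 32.7 with a 95% counting interval of 8.84 to 273. The counts with heterozygous 3 and 4 left out were 0 higher and 9 lower of 16.

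**Figure D2:**
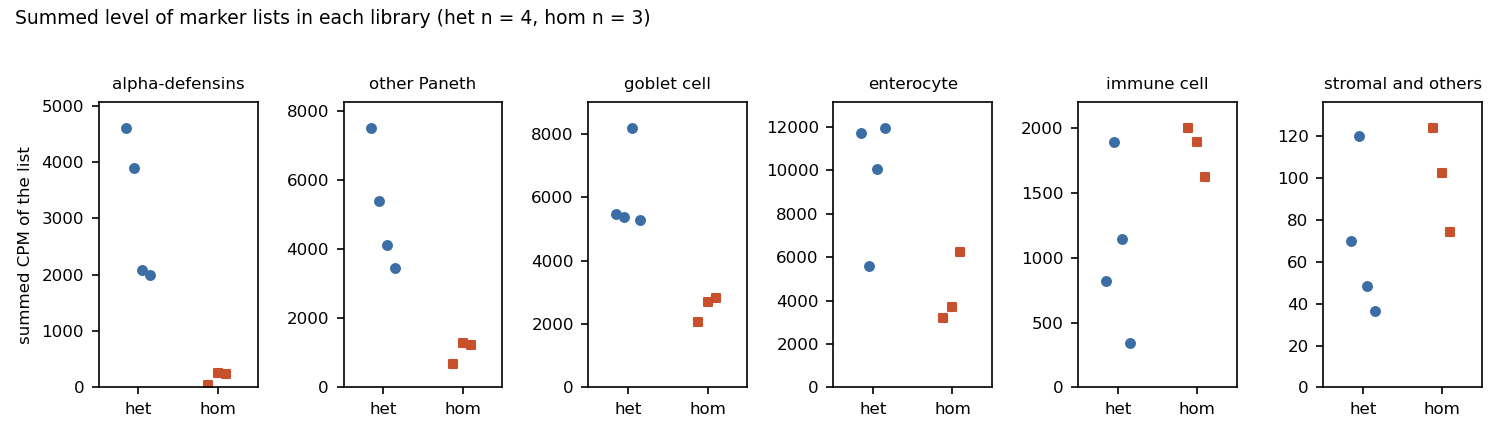
Summed CPM of the genes of 6 lists (alpha-defensins, other Paneth cell genes, goblet, enterocyte, immune, and stromal genes) in each of the 7 crypt libraries, 1 point a library on a linear axis from 0. Defensin, other Paneth and goblet sums are lower in every homozygous library than in every heterozygous one, while enterocyte, immune and stromal sums overlap between the groups.

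Enterocyte genes were lower as well. Of 30 tested, 15 fell and none rose (median -1.59), but this count depended on single libraries: it was 6 without homozygous 2, 20 without heterozygous 2, 7 when every gene with 1 read was tested and 5 without heterozygous 3 and 4. Slc2a2, the basolateral glucose and fructose transporter, was at 74.99, 18.6, 69.03 and 63.2 CPM in heterozygous crypts and 2.79, 4.15 and 7.33 in homozygous crypts. Heterozygous 2 was well below the other 3 controls, and homozygous 3 was the highest of its group (log2 fold change -3.57 ± 0.62, edgeR adjusted p 0.00803). Sis, the sucrase-isomaltase of the brush border, was at 1437, 709.6, 1309 and 1281 CPM in heterozygous crypts and 197, 230.5 and 470.03 in homozygous crypts (-1.99 ± 0.39, edgeR adjusted p 0.0103), and without heterozygous 3 and 4 its edgeR adjusted p was 0.0626 with a fold change of -1.85. Lct, Anpep, Mttp and Alpi passed with fold changes from -3.40 to -1.65, and each lost its call under 5 or more of the 18 alternatives. The fatty acid binding protein Fabp2 (-0.39 ± 0.44, edgeR adjusted p 0.555) and the retinol binding protein Rbp2 (-0.91 ± 0.60, 0.314) did not pass.

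Of 23 transcription factors of intestinal identity tested, 8 fell and 2 rose, with a median of -0.35. Over all genes 17.7% fell and 11.6% rose, so the share of rises was not above that of all genes. The fall of Foxa3 was the largest (21.1, 22.2, 28.5 and 18.7 CPM (heterozygous) and 7.63, 10.2 and 7.84 CPM (homozygous); fold change -1.40 ± 0.18, edgeR adjusted p 0.000991). Isx, a homeobox factor that controls vitamin A metabolism, rose, 67.7, 73.5, 83.6 and 82.7 CPM in the 4 heterozygous libraries against 107, 109.6 and 118 in the 3 homozygous ones (0.54 ± 0.09). The caudal factors Cdx1 (-0.35 ± 0.09) and Cdx2 (-0.37 ± 0.11) passed by small margins and lost their calls under 8 and 9 of 18 alternatives. Hnf4a (-0.08 ± 0.13, edgeR adjusted p 0.661), Hnf4g (-0.64 ± 0.26, 0.111) and Gata4 (-0.33 ± 0.26, 0.404) did not pass. The falls numbered 4 without homozygous 1 and 13 without heterozygous 2. Without heterozygous 3 and 4 the counts were 1 higher and 4 lower of 23, beside 1529 higher and 2085 lower of 17303 genes. Of 17 listed gastric genes 5 were tested, 1 rose and 2 fell. Gkn3, a gastrokine, fell, with 791 reads in the heterozygous and 2 in the homozygous libraries, a ratio of 227 with a 95% counting interval of 62.6 to 1876. Gkn3 was thus present in heterozygous crypts, and its place in the gastric list does not make it a gene of the stomach alone. Anxa10, an annexin of gastric epithelium, was at 0.117, 0, 0 and 0 CPM in heterozygous crypts and 22.2, 1.77 and 2.27 in homozygous crypts, the high value being that of homozygous 1, and was the rise. Leaving out heterozygous 3 and 4 gave 0 higher and 2 lower of 5, so Anxa10 then did not pass.

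Genes that distinguish crypt from villus in other animals were then followed. The 200 genes highest in crypts and the 200 highest in villi of heterozygous Rosa26(CreER) mice were taken from those libraries alone. Of the crypt-high genes 199 were tested, 120 fell and 16 rose (median -0.55). Of the villus-high genes 193 were tested, 92 fell and 8 rose (median -1.47). Both medians were below that of all genes, 0.01. The villus-high falls numbered 53 without homozygous 1, 51 without homozygous 2 and 54 of 189 without heterozygous 3 and 4 (median -1.22), and the crypt-high falls 100 of 199 without heterozygous 3 and 4 (median -0.56). With 100 genes in each list the medians were -1.15 and -1.65, and with 500 they were -0.21 and -0.96. The crypt-high list of 500 divided more: of 498 tested, 206 fell and 94 rose, against 16 rises of 199 in the list of 200. Rosa26(CreER) crypts had Fabp6 at 103 to 554 CPM of all reads and the villi of those heterozygous animals at 0 to 0.0364. In these reference lists crypt against villus and the segment therefore cannot be told apart.

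**Figure D3:**
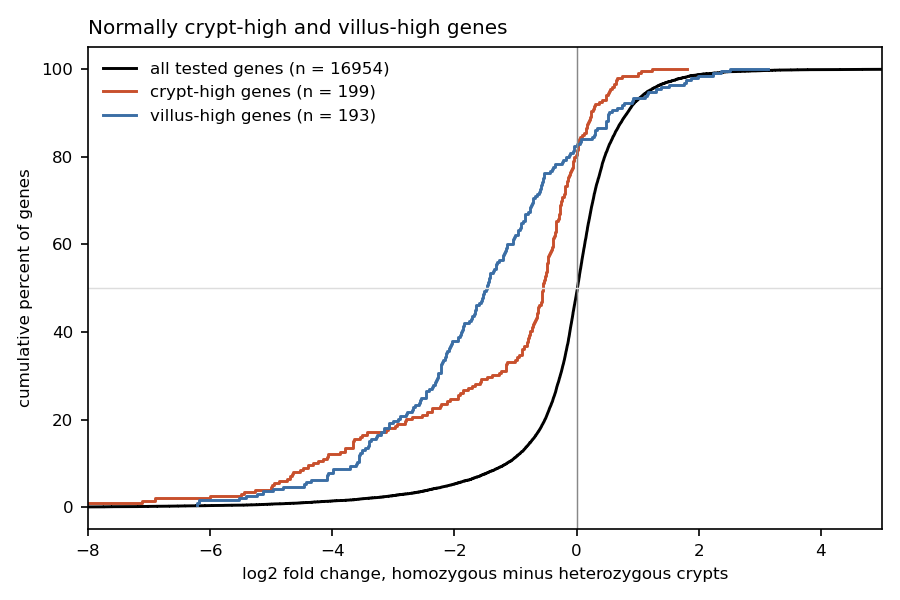
Cumulative percent of genes (vertical axis) at or below each log2 fold change, homozygous minus heterozygous (horizontal axis), for all genes tested, the crypt-high list and the villus-high list. Below 0 both reference curves lie left of that of all genes, and near the top the villus-high curve meets it; the medians are -0.55 and -1.47 against 0.01.

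Genes that p53 is known to activate were higher. Of 26 tested, 17 rose and 1 fell (median 1.03; without heterozygous 3 and 4, 15 higher and 1 lower of 26). Phlda3 (ENSMUSG00000041801, chromosome 1, 135766119 to 135769136, plus strand) was at 0.0585, 0.253, 0.188 and 0.322 CPM in heterozygous crypts and 25.5, 21.1 and 19.8 in homozygous crypts (6.70 ± 0.37, edgeR adjusted p 4.58e-05). It was barely detected in any control and was above 19 CPM in every homozygous library. Zmat3, an RNA-binding p53 target, was at 14.8, 16.7, 15.3 and 16.1 CPM in heterozygous crypts and 145.1, 114 and 119 in homozygous crypts (3.002 ± 0.10, edgeR adjusted p 6.16e-06). Eda2r, a death-domain receptor for ectodysplasin, was at 0.966, 1.18, 1.80 and 2.01 CPM in heterozygous crypts and 31.4, 27.7 and 30.8 in homozygous crypts (4.33 ± 0.25). The cyclin Ccng1 was 88.8, 83.4, 109.6 and 89.97 CPM in the 4 heterozygous libraries against 429, 320.2 and 354 in the 3 homozygous ones (1.98 ± 0.13), and the apoptosis effector Bax was 11.5, 10.9, 10.5 and 12.7 CPM in the 4 heterozygous libraries against 50.8, 39.9 and 34.8 in the 3 homozygous ones (1.87 ± 0.14). In each of the 5, every homozygous library was above every heterozygous one. For Phlda3 and Eda2r this was fixed by the choice of the largest rises, and 39.6% of all genes did not overlap.

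The cell cycle inhibitor Cdkn1a rose less, 54.2, 37.6, 54.6 and 54.04 CPM in the 4 heterozygous libraries against 166, 106 and 114 in the 3 homozygous ones (1.36 ± 0.19, edgeR adjusted p 0.00214). Mdm2, the ligase that degrades p53, was at 0.71 ± 0.09 (edgeR adjusted p 0.00119). Sesn2, a stress-induced regulator of mTORC1, rose (1.42 ± 0.17) and its paralog Sesn1 fell (-0.49 ± 0.10, edgeR adjusted p 0.00869). The promoter of Cdkn1a is shown because it is the 1 of the list in which a pair of p53 half-site cores was found. It is RefSeq sequence of GRCm38.p6, chr17:29090911-29090964, plus strand, with the pair in capitals (CATG, 6 bases, CATG, searched on both strands and reading the same on both).
Cdkn1a promoter: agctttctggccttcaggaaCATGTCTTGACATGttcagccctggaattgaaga
The pair lies 48 to 35 bases before the start. Promoter windows were found for 19 of the 26 genes (27 windows), and only the 250 bases before each start were searched. The pair was in 1 of these genes, against 161 of the 32851 windows searched (0.49%). Windows of 1 chromosome were left out of the search. A match is a description of letters and not a binding site.

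Cdkn2a (ENSMUSG00000044303, chromosome 4, 89274471 to 89294653, minus strand) encodes the Ink4a inhibitor of cyclin-dependent kinases and, from another first exon, Arf, which stabilizes p53. It was at 0, 0, 0.0752 and 0.0248 CPM in the heterozygous libraries and at 30.3, 15.05 and 16.8 in the homozygous ones. The heterozygous libraries held 3 reads in all and the homozygous ones 1543, a ratio of 897 with a 95% counting interval of 306 to 4354. The fitted change was 9.63 ± 0.59 (edgeR adjusted p 7.86e-05). RefSeq gives starts 12427 bases apart, and counts per gene do not separate the transcripts. Its neighbours on the chromosome, chosen after their values were seen, were also higher: Cdkn2b, a related inhibitor, at 0.56 ± 0.15 (edgeR adjusted p 0.025) and Mtap, an enzyme of methionine salvage, at 1.32 ± 0.11 (edgeR adjusted p 0.000161).

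Genes of fetal and regenerating epithelium were higher in part. Of 25 tested, 13 rose and none fell (median 1.59; without heterozygous 3 and 4, 10 higher and 0 lower of 26). Il1rn was at 0.585, 1.15, 0.714 and 0.545 CPM in heterozygous crypts and 36.9, 26.4 and 27.8 in homozygous crypts (5.33 ± 0.28, edgeR adjusted p 3.49e-05). F3, tissue factor, which starts coagulation, was at 0.995, 1.07, 1.02 and 1.54 CPM in heterozygous crypts and 13.4, 7.60 and 11.1 in homozygous crypts (3.20 ± 0.26). Tnfrsf12a, the TWEAK receptor, had a fold change of 2.42 ± 0.21, and the keratin Krt7 one of 0.88 ± 0.11. Homozygous 1 was the highest library for each of F3, Tnfrsf12a and Krt7.

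The 2 genes most used as marks of this state did not pass. Clu, clusterin of revival stem cells, was at 3.04, 5.34, 0.414 and 0.867 CPM in heterozygous crypts and 13.8, 6.92 and 3.47 in homozygous crypts (1.73 ± 0.88, edgeR adjusted p 0.194). Ly6a, called Sca1, was at 5.68, 16.5, 6.02 and 2.38 CPM in heterozygous crypts and 19.99, 13.2 and 15.2 in homozygous crypts (1.07 ± 0.60, edgeR adjusted p 0.236). Their groups overlapped. The count of rises was 19 without heterozygous 2 and 10 without homozygous 1.

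Of 9 S100 calcium-binding proteins tested, 5 rose and none fell. S100a6 (ENSMUSG00000001025, chromosome 3, 90612882 to 90624181, plus strand) was at 2.52, 3.48, 3.20 and 2.08 CPM in heterozygous crypts and 215, 157 and 163 in homozygous crypts (5.99 ± 0.21, edgeR adjusted p 1.17e-05). S100a11 was at 17.4, 18.5, 20.8 and 17.4 CPM in heterozygous crypts and 109.7, 85.6 and 93.7 in homozygous crypts (2.38 ± 0.11). S100a14 was at 3.24 ± 0.27 and S100a10, the partner of annexin A2, at 0.78 ± 0.10. The groups of all 4 were apart, which for S100a6 and S100a14 was fixed by the choice of the largest rises. Of 12 annexins, membrane-binding proteins, 6 rose and none fell. Anxa2 was at 209.8, 183, 201 and 183 CPM in heterozygous crypts and 665, 469 and 625 in homozygous crypts (1.59 ± 0.13, edgeR adjusted p 0.000136). Anxa3 was 1.55, 2.25, 1.43 and 1.66 CPM in the 4 heterozygous libraries against 31.2, 11.9 and 15.9 in the 3 homozygous ones (3.51 ± 0.35), highest in homozygous 1. Anxa4 did not pass (0.17 ± 0.11, edgeR adjusted p 0.302). With heterozygous 3 and 4 left out, the counts were 5 higher and 0 lower of 9 for S100 and 4 higher and 0 lower of 12 for annexin genes.

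Signals through the EGF receptor family keep crypt cells dividing. Of its ligands Ereg, Btc and Hbegf rose while Egf and Nrg4 fell, and the receptors Egfr, Erbb2 and Erbb3 fell. Ereg, epiregulin, was at 1.14, 2.08, 1.17 and 1.66 CPM in heterozygous crypts and 13.1, 9.78 and 11.95 in homozygous crypts (2.93 ± 0.25, edgeR adjusted p 0.000184). Btc, betacellulin, was 7.70, 5.53, 10.9 and 8.12 CPM in the 4 heterozygous libraries against 30.8, 22.8 and 22.5 in the 3 homozygous ones (1.66 ± 0.22), and Hbegf was at 1.30 ± 0.21 (edgeR adjusted p 0.00271). Areg, amphiregulin, did not pass (2.51 ± 0.80, edgeR adjusted p 0.055), although its groups did not overlap. Erbb3, a receptor for neuregulins, was at 397, 331, 337 and 432 CPM in heterozygous crypts and 196, 197 and 243 in homozygous crypts (-0.82 ± 0.13, edgeR adjusted p 0.00245). Egfr itself had a smaller change (-0.36 ± 0.09) and lost its call without heterozygous 3 and 4 and in 4 other alternatives. Over the list of 12 tested, 4 rose and 6 fell. The falls numbered 3 without homozygous 1, and without heterozygous 3 and 4 the counts were 4 higher and 4 lower of 12.

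The Hippo pathway limits the coactivators YAP and TAZ, which act through TEAD factors and are required for regeneration of the crypt. Of 19 tested, 7 rose and 3 fell (without heterozygous 3 and 4, 6 higher and 1 lower of 19). Yap1 was at 89.5, 77.2, 94.8 and 100.5 CPM in heterozygous crypts and 137, 131 and 135 in homozygous crypts (0.57 ± 0.09, edgeR adjusted p 0.00315). The TEAD factors differed in direction. Tead1 (0.72 ± 0.08, edgeR adjusted p 0.000697) and Tead4 (1.67 ± 0.27, 0.00292) rose, and Tead2 fell, 8.95, 9.55, 5.53 and 7.38 CPM in the 4 heterozygous libraries against 1.71, 2.71 and 1.499 in the 3 homozygous ones (-1.98 ± 0.29). Ajuba, a LIM protein that binds the LATS kinases, was 1.76, 2.56, 2.07 and 2.65 CPM in the 4 heterozygous libraries against 20.3, 16.3 and 16.7 in the 3 homozygous ones (2.97 ± 0.18), and Wwc2, a scaffold of the pathway, was at 3.23 ± 0.30.

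The other genes of translation initiation changed by small amounts. Of 46 tested, 17 rose and 2 fell (median 0.22). Of the relatives of Eif4g2, Eif4g3 was at 83.1, 88.2, 80.5 and 64.5 CPM in heterozygous crypts and 146, 136 and 132 in homozygous crypts (0.80 ± 0.11, edgeR adjusted p 0.00129). Eif4g1 did not pass (0.22 ± 0.09, edgeR adjusted p 0.114). Eif1, which guides start codon choice, was 188, 193, 203 and 206 CPM in the 4 heterozygous libraries against 424, 397 and 416 in the 3 homozygous ones (1.06 ± 0.07), and Eif5, which acts with it, was at 0.69 ± 0.08. Eif4b did not pass (-0.14 ± 0.07, edgeR adjusted p 0.193). The rises numbered 8 without homozygous 1 and 5 under library totals, so the direction of this list rests in part on the scaling. The counts with heterozygous 3 and 4 left out were 17 higher and 1 lower of 46.

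The study also used A-485, an inhibitor of the acetyltransferases CBP and p300, in organoids. Among 44 histone modifiers, 8 rose and 3 fell, beside 11.6% and 17.7% of all genes. Ep300 was at 117, 112, 114 and 102 CPM in heterozygous crypts and 163, 183 and 186 in homozygous crypts (0.67 ± 0.08, edgeR adjusted p 0.000765), and Crebbp was at 0.54 ± 0.09 (edgeR adjusted p 0.00348), a call lost under library totals. The acetyltransferase Kat2a was at 0.67 ± 0.07. The deacetylase Hdac5 was 26.7, 29.6, 28.8 and 32.2 CPM in the 4 heterozygous libraries against 14.97, 16.4 and 14.9 in the 3 homozygous ones (-0.93 ± 0.10). The rises numbered 4 without heterozygous 4 and 2 under library totals. Without heterozygous 3 and 4 they numbered 4 of 44, a share near that of all genes there (1529 of 17303).

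Genes of sterol synthesis, which the factor SREBP2 induces when cell sterols are low, were higher. Of 24 tested, 18 rose and none fell (median 0.67; without heterozygous 3 and 4, 16 higher and 0 lower of 24; with the villi in the fit, 7 rises). Hmgcs1, the synthase at the start of the pathway, was at 182, 176, 227 and 180.3 CPM in heterozygous crypts and 342, 287 and 383 in homozygous crypts (0.82 ± 0.13, edgeR adjusted p 0.00234). Sqle, which makes squalene epoxide, was at 0.89 ± 0.11, and Idi1, an isoprenoid isomerase, at 0.96 ± 0.12. The changes of these 3 were similar in size. The promoter of Hmgcs1 is shown because it is the 1 of the list that held the sterol response motif searched. It is RefSeq sequence of GRCm38.p6, chr13:119690194-119690242, plus strand, with the motif in capitals (TCACNCCAC, both strands searched).
Hmgcs1 promoter: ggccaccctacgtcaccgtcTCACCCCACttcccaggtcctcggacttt
The motif lies 137 to 129 bases before the start. Windows were found for 16 of the 24 genes (19 windows), searched before the start only. The motif was in 1 of these genes, against 346 of the 32851 windows searched (1.05%). The same motif was found in 1 promoter of the p53 list as well, that of Sesn1.

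The unfolded protein response and the integrated stress response adjust protein synthesis to stress. Of 24 genes of the former 17 fell and none rose (median -0.39). Xbp1, its transcription factor, was at 171, 151, 181 and 160.3 CPM in heterozygous crypts and 108, 96.8 and 107 in homozygous crypts (-0.68 ± 0.09, edgeR adjusted p 0.000987). Hspa5, the chaperone BiP, did not pass (-0.20 ± 0.12, edgeR adjusted p 0.245). These genes are also high in secretory cells. The falls numbered 11 without homozygous 2, with the villi in the fit, or without heterozygous 3 and 4. Of 31 genes of the latter 8 rose and 6 fell, the falls near the 17.7% of all genes. Psat1, of serine synthesis, was 22.9, 23.4, 18.5 and 13.2 CPM in the 4 heterozygous libraries against 56.99, 48.8 and 54.1 in the 3 homozygous ones (1.45 ± 0.19), and Aldh18a1, of proline synthesis, fell (-1.04 ± 0.13). Atf4, the factor that induces them, did not pass (0.16 ± 0.08, edgeR adjusted p 0.183). Leaving out heterozygous 3 and 4 gave 6 higher and 6 lower of 31.

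Mitotic genes were lower by modest amounts. Of 30 tested, 20 fell and none rose (median -0.45; without heterozygous 3 and 4, 0 higher and 15 lower of 30; without homozygous 1, 11 falls; with the villi in the fit, 1). Mki67 was at 527, 471, 491 and 559 CPM in heterozygous crypts and 274, 347 and 309 in homozygous crypts (-0.72 ± 0.11, edgeR adjusted p 0.00184), and the topoisomerase Top2a was at -0.66 ± 0.13. The groups of both genes did not overlap. Of 30 genes of DNA replication 5 fell and 3 rose, shares near those of all genes. The primase Prim1 fell (-0.64 ± 0.10, edgeR adjusted p 0.00277), and the sliding clamp Pcna did not pass (0.12 ± 0.08, edgeR adjusted p 0.265). No rise was called without homozygous 1, no fall with the villi in the fit, and without heterozygous 3 and 4 the counts were 0 higher and 4 lower of 30.

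Of 13 genes of the mitochondrial genome none passed in edgeR, with a median fold change of 0.79. The respiratory subunit mt-Co1 was at 89614, 123099, 163630 and 79912 CPM in heterozygous crypts and 233179, 154586 and 202055 in homozygous crypts (0.79 ± 0.30, edgeR adjusted p 0.0829). Heterozygous 3 was above homozygous 2, so the groups overlapped. Without heterozygous 3 and 4, 5 of 13 rose. Of 40 nuclear genes of oxidative phosphorylation, 1 rose and 2 fell, 13 fell without heterozygous 2, and without heterozygous 3 and 4 the counts were 9 higher and 0 lower of 40.

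**Figure D4:**
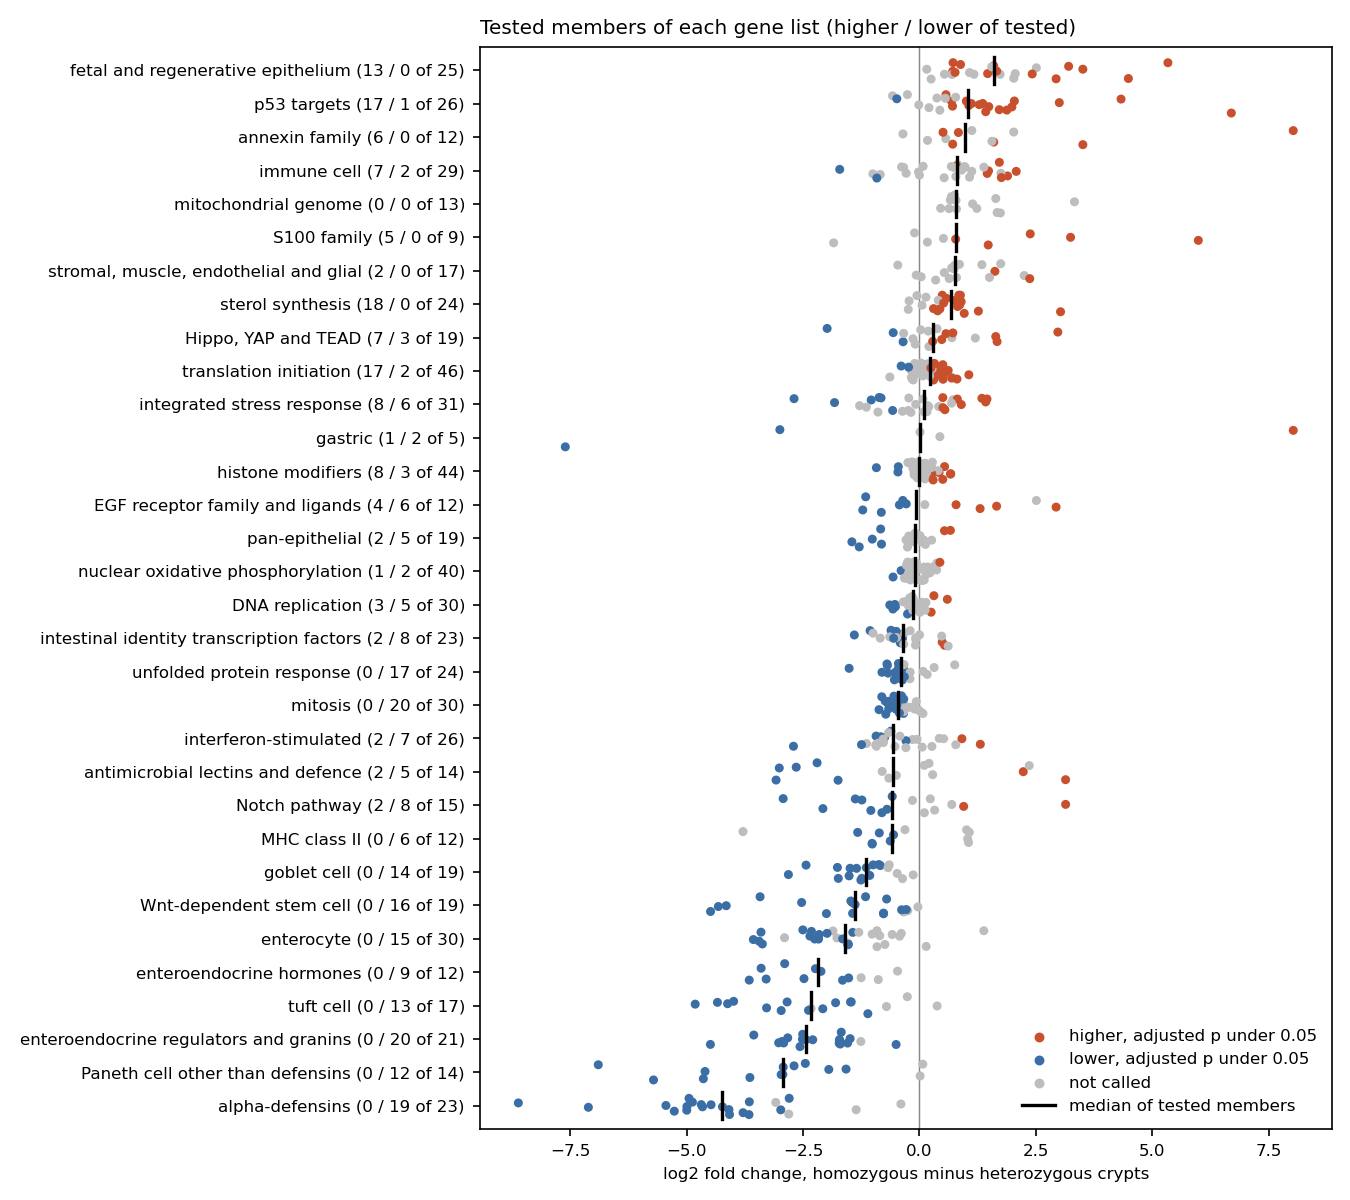
Log2 fold change, homozygous minus heterozygous, of every tested gene in 32 lists (1 point a gene, orange where called higher, blue where called lower and grey where not called; the black bar is the list's median). The points of the Paneth, enteroendocrine and tuft lists lie mostly left of 0, and those of the p53, fetal and sterol lists mostly right of it.

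Markers of other cells and of defence were followed because a crypt preparation holds lymphocytes, myeloid cells and stroma. Of 29 immune genes 7 rose and 2 fell (without heterozygous 3 and 4, 4 higher and 1 lower of 29; without homozygous 1, 2 rises). Igha, the heavy chain of IgA from plasma cells, was at 95.01, 96.7, 79.97 and 25.7 CPM in heterozygous crypts and 284, 329.8 and 327 in homozygous crypts (2.08 ± 0.44, edgeR adjusted p 0.0152). Csf1r, the receptor of macrophages, was 2.31, 2.05, 2.44 and 1.16 CPM in the 4 heterozygous libraries against 9.47, 6.12 and 6.55 in the 3 homozygous ones (1.89 ± 0.29). The receptor Kit, which mast cells and some secretory epithelial cells carry, fell (-1.71 ± 0.16). The pan-leukocyte gene Ptprc (0.74 ± 0.76, edgeR adjusted p 0.519) and the B cell gene Cd79a (1.123 ± 1.39, 0.589) did not pass. Heterozygous 4 held the fewest immune reads. Of 17 stromal, muscle, endothelial and glial genes tested 2 rose, a share near the 11.6% of all genes (without heterozygous 3 and 4, 1 higher and 0 lower of 19). Among them was the basement membrane collagen Col4a1, 0.351, 0.534, 0.376 and 0.198 CPM in the 4 heterozygous libraries against 2.51, 1.18 and 2.01 in the 3 homozygous ones. The part of these cells in the gene lists above was not tested.

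Several defence genes of the epithelium were lower. Pigr, which carries IgA across the epithelium, was at 5036, 3585, 5181 and 5449 CPM in heterozygous crypts and 1446, 1333 and 1518 in homozygous crypts (-1.75 ± 0.16, edgeR adjusted p 0.000278). Reg1, a lectin, was 14.7, 15.4, 30.5 and 33.8 CPM in the 4 heterozygous libraries against 3.17, 2.68 and 2.53 in the 3 homozygous ones (-3.08 ± 0.37). Reg3b (-0.50 ± 0.34, edgeR adjusted p 0.333) and Reg3g (-0.66 ± 0.44, 0.316) did not pass. Over 14 antimicrobial genes tested 5 fell and 2 rose, beside 17.7% and 11.6% of all genes. MHC class II genes fell in 6 of 12: Cd74, the invariant chain, was 1147, 1345, 1093 and 1195 CPM in the 4 heterozygous libraries against 684, 752 and 535 in the 3 homozygous ones (-0.86 ± 0.14). That count was 4 without homozygous 1 and 0 with the villi in the fit. Of 26 interferon-stimulated genes 7 fell, 1 without heterozygous 1, and 2 rose. The RNA-binding effector Ifit2 was 1 of the rises (1.31 ± 0.16, edgeR adjusted p 0.000926). With heterozygous 3 and 4 left out, the counts were 0 higher and 4 lower of 15 antimicrobial, 0 higher and 5 lower of 12 class II and 2 higher and 1 lower of 26 interferon-stimulated genes.

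General epithelial genes show what the libraries share. Epcam, present on all intestinal epithelial cells, was at 932, 792, 909.7 and 1026 CPM in heterozygous crypts and 781, 774 and 874 in homozygous crypts (-0.18 ± 0.11, edgeR adjusted p 0.261). Vil1, the gene whose promoter drives CreER, was at 1051, 579.6, 957 and 954 CPM in heterozygous crypts and 426, 342 and 548 in homozygous crypts (-1.01 ± 0.24, edgeR adjusted p 0.0163), with heterozygous 2 close to the homozygous libraries. The keratins Krt8 (0.54 ± 0.11) and Krt19 (0.66 ± 0.11) rose. Over the list of 19, 5 fell and 2 rose, the rises near the 11.6% of all genes. Without heterozygous 3 and 4 the counts were 2 higher and 4 lower of 19. Vil1 lost its call without homozygous 1, without homozygous 2 and without heterozygous 3 and 4.

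Villi of the same animals allowed the genotype effect to be compared within animals, over 7 crypt and 7 villus libraries. In villi alone, over 4 heterozygous and 6 homozygous libraries, 6422 of 15107 genes (42.5%) passed, 3155 higher (20.9%) and 3267 lower (21.6%). Some of those homozygous animals gave no crypt library. Counts and fold changes given for villi come from these 10 libraries. They therefore do not subtract exactly to the differences within animals. The effect differed between crypt and villus for 2235 of 17507 genes (12.8%), 838 with the higher effect in crypts (4.79%) and 1397 with the lower (7.98%). This count ran from 649 without homozygous 2 to 2482 without heterozygous 2; it was 892 without homozygous 3, 918 without heterozygous 1, 1137 without heterozygous 4 and 533 without heterozygous 3 and 4.

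Stem cell genes differed by tissue: 13 of 19 had a different effect. In villi 4 of the list were higher and 2 lower, and the share that was higher is near that of all genes. Slc12a2 was at 1.09 in villi against -1.16 in crypts, a difference of -2.61 ± 0.59 (edgeR adjusted p 0.0288), and Smoc2 at 1.13 against -1.38, a difference of -2.81 ± 0.59 (edgeR adjusted p 0.0257). Mitotic genes had a different effect in 15 of 30, with 10 higher in villi and none in crypts. Mki67 was at 0.83 in villi and -0.72 in crypts (difference -1.87 ± 0.43, edgeR adjusted p 0.0279). Sterol genes were higher in both tissues and more so in villi: 21 of 24 were higher there, and 17 of 24 differed. Hmgcs1 was at 2.17 in villi (difference -1.59 ± 0.33, edgeR adjusted p 0.0168). Unfolded protein response genes were higher in 8 and lower in 3 of 24 in villi, and 14 of 24 differed. Without the animals of heterozygous 3 and 4 the members that differed numbered 5 of 19 stem cell, 3 of 30 mitotic, 9 of 24 sterol and 2 of 24 unfolded protein response genes. The calls of Slc12a2, Smoc2, Mki67 and Hmgcs1 were lost there (edgeR adjusted p 0.107, 0.107, 0.0562 and 0.0709), and those of Slc12a2, Smoc2 and Mki67 also when every gene with 1 read was tested and when some single animals were left out.

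Among single genes, S100a6 was at 2.60 in villi and 5.99 in crypts, a difference of 3.21 ± 0.18 (edgeR adjusted p 7.44e-05). Scaled over all 17 Vil1-CreER libraries, it ranged from 22.4 to 31.02 CPM in heterozygous villi and from 136 to 236 in homozygous villi. On that scale it ranged from 1.69 to 2.83 CPM in heterozygous crypts and from 127 to 174 in homozygous crypts. Eda2r had a larger log2 change in villi (7.58) than in crypts (difference -3.61 ± 0.63), a call lost without heterozygous 3 and 4. On the same scale it was near the floor in heterozygous villi, at 0 to 0.166 CPM. It was at 8.09 to 20.9 CPM in homozygous villi and higher, at 22.4 to 25.4, in homozygous crypts. Among genes with a mean log2 CPM of 3 or more, the 5 largest calls in each direction were Rasgrp1, Rac2, Car2, Ly9 and Bin1, with the higher effect in crypts, and Psrc1, Pxdn, Ces2b, Aqp4 and Eda2r, with the lower. Rasgrp1, Rac2 and Ly9 are genes of lymphocytes, and the immune list had 10 of 29 members that differed, with 15 lower in villi, and 7 that differed without heterozygous 3 and 4. Psrc1, a spindle protein and p53 target, was at -4.33 ± 0.58 (edgeR adjusted p 0.00695). It too was near the floor in heterozygous villi, at 0 to 0.644 CPM, and was at 20.9 to 63.9 in homozygous villi. Homozygous crypts were at 49.01 to 69.96 CPM on that scale. The calls of Psrc1, Ces2b and Aqp4 held in every alternative, and those of Rasgrp1, Rac2, Car2, Ly9, Bin1 and Pxdn did not; Ces2b has close paralogs, so its count is uncertain.

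Crypts of Rosa26(CreER) mice on day 9, 5 heterozygous and 4 homozygous, are the most similar experiment. The driver, the time and the sequencing table differ together and cannot be told apart, and transcripts of Y-linked genes were found in 5 of 5 heterozygous and 1 of 4 homozygous Rosa26(CreER) libraries. There, 3198 of 15846 genes (20.2%) passed, 1367 higher (8.63%) and 1831 lower (11.6%). The genotype effect differed between the experiments for 321 of 18013 genes (1.78%), 171 higher in Vil1-CreER crypts (0.949%) and 150 lower (0.833%). That count was 39 without Vil1 homozygous 1, 759 without Rosa26 homozygous 5, 107 without Vil1 heterozygous 3 and 4, 131 with every gene tested, 4 with a replicate block and 726 with a covariate for Y-linked transcripts.

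Eif4g2 was reduced more in the Rosa26(CreER) crypts (-1.98) than in the Vil1(CreER) crypts (-0.99), a difference of 1.06 ± 0.13 (edgeR adjusted p 0.00229). Scaled over the Rosa26(CreER) crypts alone, it ranged from 466 to 503 CPM in heterozygous and from 98.8 to 140.1 in homozygous libraries. Among the 16 genes examined whose effect differed, Cdkn2a had the largest difference, 8.58 ± 1.06 (edgeR adjusted p 0.00229). Heterozygous Vil1(CreER) crypts held only 3 reads of Cdkn2a. In Rosa26(CreER) crypts, scaled alone, it lay between 0.142 and 0.602 CPM in heterozygous and between 0.123 and 1.03 in homozygous libraries. Those groups overlapped. In Vil1(CreER) villi, scaled over all 17 Vil1-CreER libraries, it lay between 12.1 and 41.9 in homozygous libraries and was at most 0.393 in heterozygous ones. Phlda3 (2.50 against 6.70, difference 4.26 ± 0.56) and Eda2r (1.48 against 4.33, difference 2.91 ± 0.38) rose in both. Esrrg was at -2.12 on day 9 (difference -5.07 ± 0.71, edgeR adjusted p 0.0055), and Slc1a3 at -1.65 (difference -4.31 ± 0.65). The calls of Phlda3, Esrrg and Slc1a3 were lost under the replicate block, and that of Eda2r held in every alternative.

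Lists set side by side show which groups were also called in Rosa26(CreER) crypts on day 9. There, 11.6% of all genes tested were lower and 8.63% higher. Stem cell genes were lower in 15 of 19, Paneth genes in 12 of 14, goblet genes in 15 of 19, enteroendocrine regulators in 16 of 21 and tuft genes in 10 of 16. Mitotic genes were lower in 23 of 30. Enterocyte genes were lower in 2 and higher in 2 of 30 on day 9, where 15 fell in Vil1(CreER) crypts at 3 months. Without heterozygous 3 and 4 only 5 of the 30 fell at 3 months. Sis, for example, was at 0.49 on day 9 (edgeR adjusted p 0.385). Its fall at 3 months was not called without those 2 libraries (edgeR adjusted p 0.0626). The p53 list had 9 rises of 26 on day 9, and the mitochondrial genome 12 of 13. Unfolded protein response genes were lower in 4 of 24. None of these differences between list counts was itself tested.

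**Figure D5:**
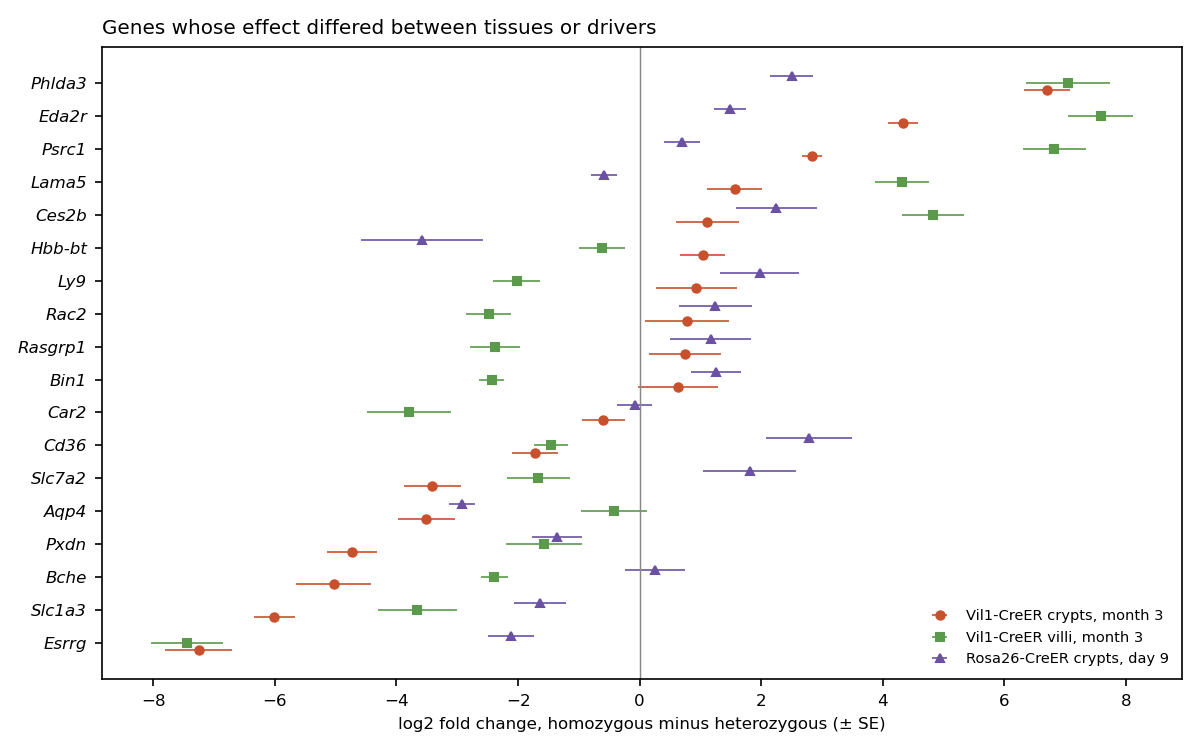
Log2 fold change, homozygous minus heterozygous, ± SE for 18 genes in Vil1-CreER crypts at 3 months, Vil1-CreER villi at 3 months and Rosa26-CreER crypts on day 9, with 1 symbol an experiment. Phlda3 is at 6.70 in the crypts and 7.04 in the villi at 3 months and at 2.50 on day 9; Ly9, Rac2, Rasgrp1 and Bin1 lie right of 0 in crypts and left of 0 in villi.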

How the data were processed

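RNA of intestinal crypts was poly(A)-selected and sequenced with a dUTP directional protocol. The deposited values are whole-number read counts of each gene without normalization, per the labels, with 1 column per library. Reads were aligned with HISAT2 2.0.5 to GRCm38 (mm10), per the submitters' processing notes. The counting program, its annotation and its strand setting are not given in the sources used here, so counts of overlapping genes and of near-identical paralogs are uncertain.

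Genes with low counts were removed with filterByExpr by group, libraries were scaled with TMM, and groups were compared with edgeR 4.0.16 (R 4.3.3), glmQLFit (robust) and glmQLFTest, with Benjamini-Hochberg adjustment over all genes tested and a threshold of 0.05. The standard error is the fold change divided by the square root of F. The fit was also run on simulated counts in which all genes had the same spread. That run gives no error rate for these libraries. Crypts and villi were compared through the interaction of tissue and genotype within 7 animals, and the drivers through the interaction of driver and genotype over 16 crypt libraries. Alternatives were DESeq2 1.42.0, other scaling and filters, covariates, a replicate block and libraries left out. No library was left out of the reported values, and no library pair agreed within sampling noise. Counting intervals cover counting error only.

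The members and the 32 gene lists (761 symbols, 2 not found among 54532 genes, 9 matched by an older symbol in RefSeq) were chosen with earlier results of these data known. The text names the 12 largest rises and the 12 largest falls, among calls whose groups did not overlap, whose mean log2 CPM was 3 or more and whose symbol is not that of a predicted gene. In each list it names the 3 members of highest level per length, the largest rise and the largest fall. For each interaction it names the 5 largest calls in each direction with the same limits on level and symbol. Other members were chosen after their values were seen. Some genes the rule names are not reported here.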

Additional observations from a re-analysis of the deposited data

Results flagged for a closer look

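In 9 of 190 genes examined, 1 heterozygous library lay far from the other 3 by Dixon's criterion, where chance alone marks about 1 in 20 groups. Heterozygous 1 was apart for the Paneth gene Mptx2 (336 CPM, the highest), Anxa10 (0.117, the highest) and the ERK antagonist Spry1 (5.76). Heterozygous 2 was apart for Cdkn1a (37.6, the lowest), Hbegf (4.24, the lowest) and the class II gene H2-Aa (516, the highest). Heterozygous 3 was apart for Hmgcs1 (227, the highest) and Mtap (19.9). Heterozygous 4 was apart for F3 (1.54, the highest).

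The genotype effect differed between crypts and villi of the same animals, by edgeR's interaction test, for 21 of the genes examined, which were the largest rises and falls in crypts, the largest differences by the rule and the list members whose difference is given above. The log2 effect was higher in crypts for Cdkn2a (2.68), S100a6 (3.21), Serpinb5 (1.63), Anxa3 (2.58), S100a14 (2.64), Rasgrp1 (3.91), Rac2 (3.66), the carbonic anhydrase Car2 (3.51), Ly9 (3.50) and Bin1 (3.48). It was lower in crypts for Eda2r (-3.61), Dpysl5 (-3.82), Pnliprp2 (-3.26), Psrc1 (-4.33), the peroxidase Pxdn (-3.89), Ces2b (-3.73), the water channel Aqp4 (-3.52), Slc12a2 (-2.61), Smoc2 (-2.81), Mki67 (-1.87) and Hmgcs1 (-1.59). Markers of lymphocytes are among the former, and their part was not tested. Eda2r and Psrc1 were near the floor in heterozygous villi. Scaled over all 17 Vil1-CreER libraries, so were Dpysl5 (0.172 to 0.624 CPM) and Pxdn (0.132 to 1.41). On that scale Cdkn2a was near the floor in heterozygous crypts (at most 0.0609 CPM) and villi (at most 0.393). Its homozygous libraries overlapped, at 12.2 to 24.5 CPM in crypts and 12.1 to 41.9 in villi.

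Between Vil1-CreER crypts at 3 months and Rosa26-CreER crypts on day 9 the effect differed for 16 of the genes chosen in the same way. It was higher in the former for Cdkn2a (8.58), Phlda3 (4.26), Eda2r (2.91), the globin Hbb-bt (4.74), the laminin chain Lama5 (2.22), Psrc1 (2.20) and Eif4g2 (1.06). It was lower for Esrrg (-5.07), Mptx2 (-3.44), Dpysl5 (-3.97), Clic6 (-2.89), Slc1a3 (-4.31), Prlr (-3.80), the cholinesterase Bche (-5.22), the amino acid transporter Slc7a2 (-5.14) and the fatty acid receptor Cd36 (-4.43). Cdkn2a and Phlda3 were near the floor in heterozygous Vil1-CreER crypts. Hbb-bt is a gene of red blood cells. The calls of Hbb-bt, Slc7a2, Cd36 and Lama5 were lost in many alternatives.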

How the results depend on the processing

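Leaving out 1 replicate, the crypt count of 4960 ran from 3223 to 5978, the crypt against villus count from 649 to 2482 and the count against Rosa26-CreER from 39 to 759. The last was 131 with every gene of at least 1 read, 4 under the replicate block, 726 with a covariate for Y-linked transcripts and 107 without the 2 heterozygous libraries of fewest ileal reads, and the crypt against villus count was 533 there. The crypt-high median was -1.15 with 100 and -0.21 with 500 genes, and the villus-high median -0.96 with 500; leaving out 1 replicate, the latter ran from -1.87 (without homozygous 3) to -1.33. The cause of these shifts was not tested, beyond fewer libraries or genes.

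The signs that reversed were those of genes that did not pass. Leaving out 1 replicate, Axin2 ran from -0.082 to 0.025 (without homozygous 1) and Hnf4a from -0.166 to 0.0043 (without homozygous 1). Axin2 was at 0.0078 without the libraries of most and fewest immune reads. With the 2 libraries of fewest ileal reads out, Hnf4a was at 0.038, Notch2 at -0.018 and Gata4 at 0.028. Pcna was at -0.018 under library totals. Of 3411 recomputed values of single genes, 3160 kept direction and side of the threshold, 209 lost the call, 35 gained it and 7 reversed.

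Equal replicate numbers across genotypes were not treated as pairs: deviations of same-numbered Vil1-CreER libraries correlated at -0.034, 0.191 and 0.107. With the replicate block, 4236 genes were called in crypts. With DESeq2's Wald test 5603 were, with the villi in the fit 3442, and 4596 of all genes with at least 1 read. Genes with few reads, such as Cdkn2a in heterozygous crypts, have wide intervals.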

Other observations

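Other gene families, chosen after their values were seen, also moved in homozygous crypts, and no test was made of a family as a whole. Of 34 cytochrome P450 genes of families 1 to 4 tested, 24 fell and none rose (median log2 fold change -2.27). Of 9 UDP-glucuronosyltransferases 8 fell (median -2.34), of 14 carboxylesterases 8 fell (median -2.14), and of 19 glutathione S-transferases 8 fell and 1 rose (median -0.41). These enzymes make foreign compounds and hormones soluble, and close paralogs among them may share reads. Over all genes tested, 17.7% fell and 11.6% rose. Without heterozygous 3 and 4, 17 of 30 cytochrome P450 genes, 8 of 9 UDP-glucuronosyltransferases, 7 of 14 carboxylesterases and 4 of 19 glutathione S-transferases fell, and 4 of the last rose.

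Targets and feedback inhibitors of ERK signalling moved the other way: of 25 tested, 14 rose and 2 fell (median 0.73). Spry4, an inhibitor of receptor signalling, was at 0.439, 0.14, 0.376 and 0.0991 CPM in heterozygous crypts and 3.55, 2.71 and 1.67 in homozygous crypts (3.34 ± 0.54, edgeR adjusted p 0.00288). Etv5, a relative of Etv4, had a fold change of 1.46 ± 0.18, the immediate early factor Egr1 one of 1.93 ± 0.26 and the phosphatase Dusp6 one of 1.15 ± 0.30, whereas Etv1 fell (-2.59 ± 0.50, edgeR adjusted p 0.00595). Of 76 cytoplasmic ribosomal protein genes 35 rose and none fell, with a small median of 0.33. Without heterozygous 3 and 4, 10 of 25 ERK genes rose and 1 fell, and 48 of 76 ribosomal protein genes rose. Ppargc1a, a coactivator of mitochondrial genes and partner of Esrrg, was at 26.2, 17.5, 26.7 and 24.3 CPM in heterozygous crypts and 0.426, 2.65 and 2.96 in homozygous crypts (-3.54 ± 0.58, edgeR adjusted p 0.00507). Hmga2, a chromatin protein of fetal tissue, was at 13.5, 13.7, 15.3 and 15.6 CPM in heterozygous crypts and 0.142, 1.41 and 0.771 in homozygous crypts (-4.16 ± 0.56, edgeR adjusted p 0.00208), lower although genes of the fetal list were higher.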
